A study of Mus musculus with 19 samples.

Results

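Ankyrin repeat, LIM and Xin repeat proteins of the muscle Z-disc, many of them known to respond to stretch, were examined in exercised mouse muscle with and without desmin. The 10 genes, taken from a list and matched to probe sets that carry exactly 1 gene symbol, were Ankrd1, Ankrd2, Csrp3, Fhl1, Fhl2, Fhl3, Lmcd1, Tcap, Xirp1 and Flnc, out of 12393 genes on the array. Where a gene had more than 1 probe set, the one with the highest mean over the 19 arrays stood for it, and the 10 genes had 11 probe sets in all. Of the 10 genes, 9 passed the filter on dim genes and were tested among 7436. Fhl3 did not pass it and its values are given without a model p.

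Tibialis anterior muscle of 129/SVE mice was collected 12 h after 50 eccentric contractions, that is, contractions during which the working muscle is stretched. The groups were Des(-/-) adult (KO_Adult, 5 arrays), wild-type adult (WT_Adult, 5), Des(-/-) aged (KO_Aged, 4) and wild-type aged (WT_Aged, 5). Adult mice were aged 7 to 9 weeks, and the aged mice 12 to 14 months. Every muscle had been exercised and unexercised muscle was not analysed here, so a difference is one between exercised muscles and not a response to exercise. Whether each array of a group stands for its own animal is not stated in the labels, so the p-values below measure array-to-array spread, part of which may be technical.

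Desmin is the intermediate filament protein of muscle that ties the Z-discs of neighbouring myofibrils to each other and to the cell membrane. The Z-disc anchors actin filaments and titin, and proteins bound there are thought to sense strain. Ankrd1 (CARP) and Ankrd2 (Arpp) are ankyrin repeat proteins that bind the N2A segment of titin and can also be found in the nucleus. Csrp3 (muscle LIM protein), the four-and-a-half LIM proteins Fhl1, Fhl2 and Fhl3, and Lmcd1 carry LIM domains, zinc-binding folds through which proteins bind each other. Tcap (telethonin) caps the end of titin in the Z-disc. Xirp1 (Xin) binds actin and gathers at sites of fibre damage, and Flnc is the muscle filamin, an actin crosslinker that binds Xin and is unfolded under tension.

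The deposited values are intensities on a linear scale. Des, the deleted gene, read 72.7 to 879 on the 9 KO arrays and 10749 to 22313 on the 10 WT arrays, so that no KO array reached the WT range. All 10 fast fibre markers were bright on every array, the lowest being Tnnc2 at 16039, as is usual for tibialis anterior, and the heart genes Myh6, Nppa, Nppb and Tnni3 did not pass the filter on dim genes. The heart gene Tnnt2 passed it, at 58.2 to 487, and was called higher in KO muscle at both ages (given with the markers). Poly-A control probe sets gave signal on 8 arrays (DapX-3 at 1003 to 2421) and almost none on the other 11 (2.37 to 29.7). KO_Adult replicates 3, 4 and 5 and all WT_Aged arrays had this signal, and the other arrays did not. A probe set for 18S RNA split the arrays in the same way, at 5835 to 19660 against 29.09 to 180.8. Aged KO against aged WT therefore lies wholly across the split, adult KO against adult WT lies across it in part, and genotype and split cannot be told apart in the aged comparison. The Gapdh 3' to 5' ratio, a sign of RNA quality, lay between 0.766 and 0.968 on 17 arrays and reached 8.61 on KO_Aged replicate 2 and 5.01 on replicate 3 of that group. Differences are on the log2(value + 4.76) scale after quantile normalization, a gene was called at a limma adjusted p under 0.05 over all tested genes, and in whole muscle fewer cells of a type and less RNA per cell cannot be told apart.

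Promoter sequence is shown for 3 of the genes whose arrays moved together (given with the correlations), Ankrd1, Lmcd1 and Flnc, as the 250 bases before the first RefSeq start in GRCm38.p6. Of the 10 genes, 8 matched the RefSeq promoter table, and Xirp1 and Tcap are named only. Capitals mark the CATTCC core of the TEAD site (read as GGAATG on the printed strand where it lies on the other) and the CArG box bound by serum response factor.
Ankrd1 chr19:36119845-36120094, minus strand: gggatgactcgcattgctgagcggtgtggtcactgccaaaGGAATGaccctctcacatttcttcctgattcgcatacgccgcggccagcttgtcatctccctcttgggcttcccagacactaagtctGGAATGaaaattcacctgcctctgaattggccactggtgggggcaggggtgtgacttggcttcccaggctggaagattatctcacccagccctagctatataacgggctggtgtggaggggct
Lmcd1 chr6:112273508-112273757, plus strand: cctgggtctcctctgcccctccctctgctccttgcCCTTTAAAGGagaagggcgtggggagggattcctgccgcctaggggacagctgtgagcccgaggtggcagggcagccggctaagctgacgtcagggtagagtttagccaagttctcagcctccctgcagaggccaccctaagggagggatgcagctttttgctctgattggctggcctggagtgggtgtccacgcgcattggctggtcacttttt
Flnc chr6:29432903-29433152, plus strand: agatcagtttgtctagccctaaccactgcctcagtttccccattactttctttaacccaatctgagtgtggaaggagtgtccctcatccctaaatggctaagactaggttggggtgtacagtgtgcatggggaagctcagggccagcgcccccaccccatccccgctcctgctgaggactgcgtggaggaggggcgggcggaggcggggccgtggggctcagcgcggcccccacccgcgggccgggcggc
Ankrd1 held 2 CATTCC matches, 210 and 123 bases before the start, and Lmcd1 a CArG box 215 bases before it. The Flnc window held no match to these motifs. Both strands of the first promoter of each gene were searched, and none of the motifs overlap in the printed windows. CATTCC was found in 1 of the 8 genes, against 12.6% of 27025 promoters, and in a second one, Flnc, when its other start was searched. A CArG box was found in 3 of 8 (Fhl1, Fhl2 and Lmcd1), against 1.4% of all promoters, a MEF2 site in 0 of 8 against 0.518%, and the E-box CANNTG, which is not marked, in 6 of 8 against 66.0%. A match describes the letters in this window and not a bound site.

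**Figure D1:**
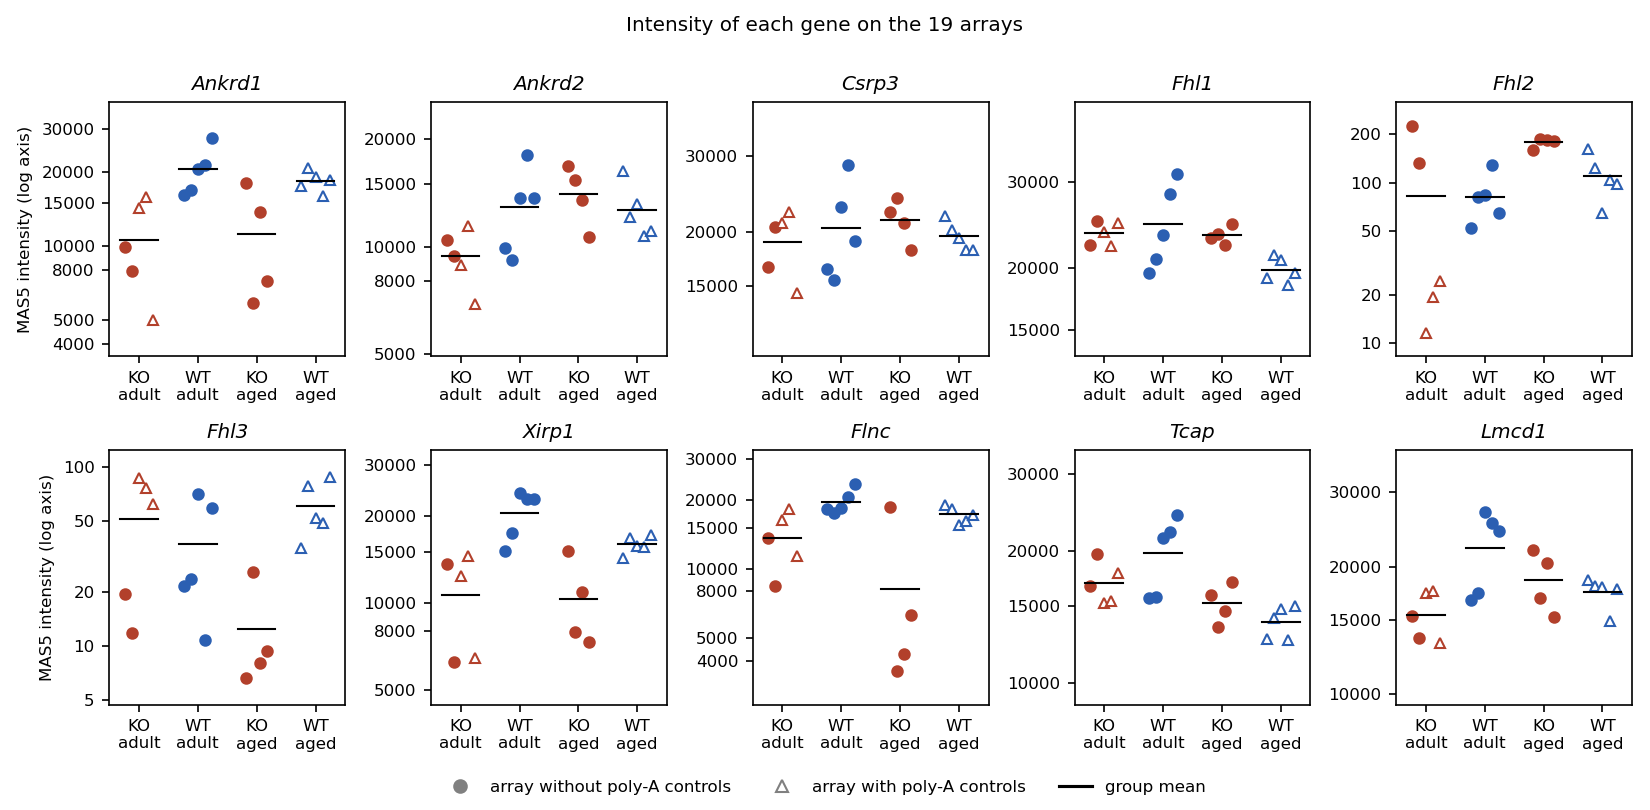
Intensity of the 10 genes on each of the 19 arrays (log axis), with KO left of WT at each age. Filled circles are arrays without poly-A controls, open triangles arrays with them, and bars group means. All 5 adult KO arrays lie below all 5 adult WT arrays for Ankrd1 and Xirp1, and 1 aged KO array stands at the WT level for Ankrd1, Xirp1 and Flnc.

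Adult muscle was compared first, to ask whether genes of mechanical stress differ without desmin. Ankrd1 and Xirp1 were lower in adult KO muscle, each by a little under 1 on the log2 scale, and the other 7 tested genes did not pass. These 2 of 9 stand beside 16.7% of all tested genes called in either direction in the same comparison, a share of similar size. Called as lower were 9.37% of all tested genes, and whether 2 of 9 exceeds that share was not tested. The median over the 10 genes was -0.36, and -0.39 over the 9 tested, against 0.04 over all tested genes.

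Ankrd1 (chr19:36111965-36119844, GRCm38.p6) read 9954, 7970, 14384, 15810 and 4998 in KO_Adult, against 16194, 17034, 20729, 21370 and 27572 in WT_Adult. Every KO_Adult array was below every WT_Adult array, and replicate 5 was the lowest of the KO arrays. The group means were 10623 ± 4477 in KO_Adult and 20580 ± 4510 in WT_Adult (SD, n = 5 each). The fitted log2 difference was -0.93 (SE 0.31, 1.9-fold lower in KO), with a limma adjusted p of 0.0474, and the two-sided exact permutation p was 0.00794, the smallest that 252 regroupings allow. That adjusted p lay close to the threshold: with 1 array left out at a time it ran from 0.024 to 0.136 and passed in 4 of 19 fits, those without KO_Adult replicate 3 or 4 or without KO_Aged replicate 1 or 2, while the difference stayed between -1.13 and -0.69. The dimmer Ankrd1 probe set differed by -0.78 (exact permutation p = 0.0397), and its KO_Adult values of 6912 to 17028 overlapped the WT_Adult values of 15930 to 24318.

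Xirp1 (chr9:120013755-120023598) read 13669, 6238, 12451, 14592 and 6482 in KO_Adult, against 15105, 17449, 24164, 22991 and 22956 in WT_Adult. Again all 5 KO arrays lay below all 5 WT arrays, and replicates 2 and 5 were far below the rest. The means were 10687 ± 4023 in KO_Adult and 20533 ± 4002 in WT_Adult (SD, n = 5 each). The difference was -0.91 (SE 0.25, 1.88-fold lower in KO, adjusted p = 0.0198, exact permutation p = 0.00794). It no longer passed without KO_Adult replicate 5 (-0.75, adjusted p = 0.0606) or without WT_Adult replicate 3 (-0.87, adjusted p = 0.0522). Groups that do not overlap were found for 10.1% of all tested genes.

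Neither call held in a fit limited to the 2 adult groups (adjusted p = 0.0763 for Ankrd1 and 0.0674 for Xirp1). With a term for the poly-A controls, which sets the 2 KO_Adult arrays without controls against WT_Adult, Ankrd1 differed by -1.15 (SE 0.41, adjusted p = 0.0993) and Xirp1 by -1.10 (SE 0.33, adjusted p = 0.0557). Both differences were thus larger and their errors wider. Among the 9 tested genes only Fhl2 was called in that fit, where 6.67% of all tested genes were. Among arrays with controls, where KO_Adult replicates 3, 4 and 5 face WT_Aged and age differs too, Ankrd1 differed by -0.88 (adjusted p = 0.134) and Xirp1 by -0.66 (adjusted p = 0.170), and 9.33% of all tested genes were called.

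Flnc, Lmcd1 and Ankrd2 had lower means in adult KO muscle and did not pass. Flnc (chr6:29433153-29461889) read 13665, 8447, 16281, 18158 and 11385 in KO_Adult, against 18286, 17456, 18416, 20491 and 23367 in WT_Adult, a difference of -0.48 (SE 0.34, adjusted p = 0.343). On the log2 scale 3 of 5 KO_Adult arrays lay below all WT_Adult arrays. Lmcd1 (chr6:112273758-112330423), a LIM protein that dampens the transcription factor GATA6, read 15292, 13602, 17354, 17528 and 13246 in KO_Adult, against 16721, 17317, 26858, 25309 and 24234 in WT_Adult. Its difference of -0.39 (SE 0.15) had an adjusted p of 0.0894 and an exact permutation p of 0.0317, with 4 of 5 KO arrays below all WT arrays. It passed with no normalization between arrays (-0.50, adjusted p = 0.0339) and with a trended, robust variance (adjusted p = 0.0464). Ankrd2 (chr19:42035917-42045111) read 10404, 9445, 8870, 11396 and 6914 in KO_Adult, against 9886, 9180, 13664, 18081 and 13674 in WT_Adult, and the groups overlapped (-0.41, SE 0.20, adjusted p = 0.157).

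Csrp3, Fhl1 and Tcap did not pass and had overlapping groups. The difference of Fhl1 was small but larger than its log2 SD, which was 0.06 in KO_Adult and 0.11 in WT_Adult. Csrp3 (chr7:48830398-48848051) averaged 18994 ± 3324 in KO_Adult and 20498 ± 5360 in WT_Adult (log2 difference 0.04, SE 0.16, adjusted p = 0.895). Fhl1 (chrX:56731209-56793346) averaged 23553 ± 1313 in KO_Adult and 24641 ± 4900 in WT_Adult (0.12, SE 0.10, adjusted p = 0.405). Tcap (chr11:98383811-98384953) averaged 16952 ± 1848 in KO_Adult and 19821 ± 3918 in WT_Adult (-0.07, SE 0.12, adjusted p = 0.732; SD, n = 5 in each group of these 3 genes). The median difference of all tested genes was 0.20 when arrays were median centred in place of quantile normalized. With that scaling Ankrd1 differed by -0.79 (adjusted p = 0.0621) and Xirp1 by -0.76 (adjusted p = 0.0429), and Tcap changed sign to 0.04.

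**Figure D2:**
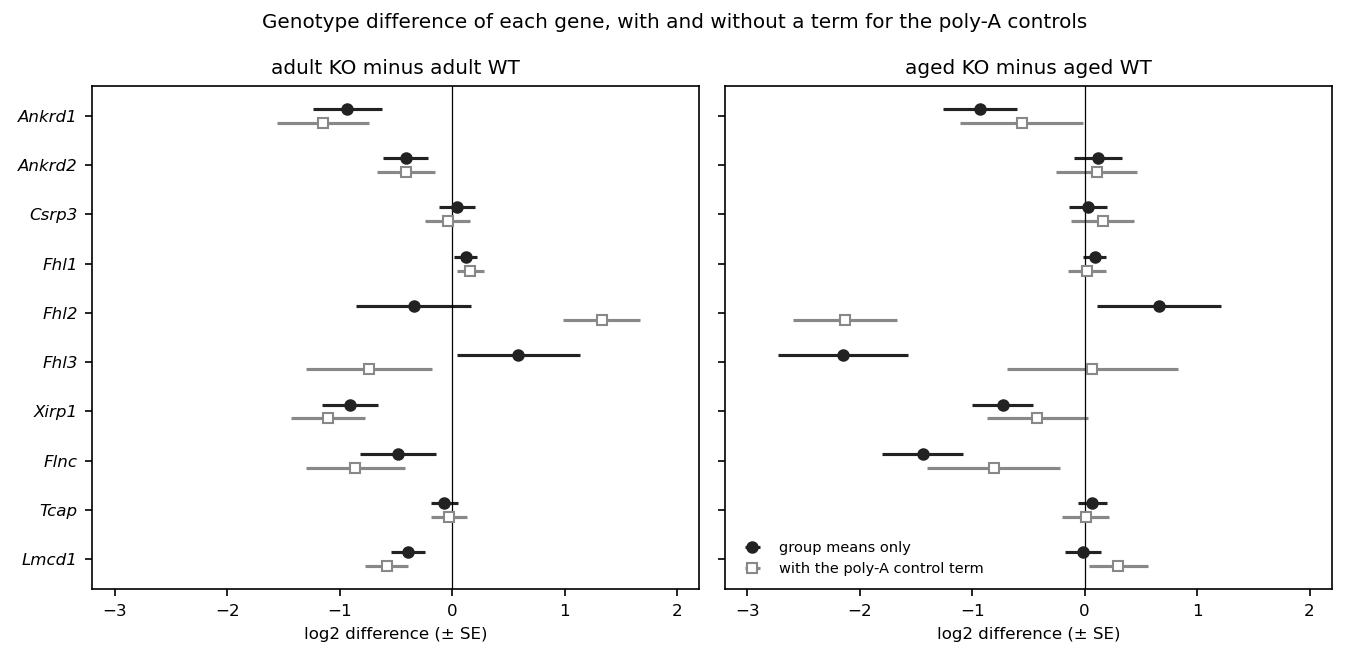
Fitted log2 difference ± SE of each gene, adult KO minus adult WT on the left and aged KO minus aged WT on the right. Filled circles are from the fit with group means only, open squares from the fit with the poly-A control term. Ankrd1 and Xirp1 lie below 0 in both fits at both ages, while Fhl2 lies at -0.34 without and 1.33 with the term in adults, and at 0.66 without and -2.13 with it in aged muscle.

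In aged muscle Ankrd1, Xirp1 and Flnc were called lower in KO, and none of the 9 tested genes was called higher. These 3 of 9 stand beside 29.5% of all tested genes called in either direction, again a share of similar size. Called as lower were 12.5% of all tested genes, and whether 3 of 9 exceeds that share was not tested. The median over the 10 genes was 0.01, against 0.07 over all tested genes. Each of the 3 lower genes had 1 KO_Aged array, replicate 1, at the WT_Aged level and 3 below it.

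Flnc read 18480, 3610, 4276 and 6310 in KO_Aged, against 19034, 18292, 15548, 16131 and 17174 in WT_Aged. Replicates 2, 3 and 4 were far below every WT_Aged array and replicate 1 was not. The difference was -1.44 (SE 0.36, 2.71-fold lower in KO, adjusted p = 0.00635, exact permutation p = 0.0397 over 126 regroupings). The call held without any single array, and the difference lay between -1.12 (adjusted p = 0.031) without replicate 2 and -1.96 (adjusted p = 4.5e-05) without replicate 1. KO_Aged replicates 2 and 3, with the lowest Flnc values, are the arrays of high Gapdh 3' to 5' ratio. Without both, the difference was -0.63 (adjusted p = 0.238), and with the poly-A control term as well it was -0.01 (adjusted p = 0.996). The part of RNA quality in the Flnc value was not tested.

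Ankrd1 read 18076, 5877, 13857 and 7228 in KO_Aged, against 17654, 20816, 19093, 16075 and 18605 in WT_Aged. The groups overlapped through replicate 1. The difference was -0.93 (SE 0.33, 1.91-fold lower in KO, adjusted p = 0.0404, exact permutation p = 0.0238). It did not pass without KO_Aged replicate 2 (-0.63, adjusted p = 0.169), without KO_Aged replicate 4 (-0.80, adjusted p = 0.110), without any 1 of the 5 WT_Aged arrays (adjusted p = 0.0564 to 0.0732), or without both arrays of high Gapdh ratio (-0.66, adjusted p = 0.265). The dimmer probe set differed by -1.43, with no overlap between 4627 to 14282 in KO_Aged and 17183 to 22219 in WT_Aged (exact permutation p = 0.00794). Of all tested genes, 31.2% had groups that do not overlap in this comparison.

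Xirp1 read 15175, 7952, 10901 and 7347 in KO_Aged, against 14310, 16858, 15783, 15694 and 17205 in WT_Aged, and replicate 1 lay among the WT values. The difference was -0.73 (SE 0.27, 1.66-fold lower in KO, adjusted p = 0.0463, exact permutation p = 0.0238). It passed in 6 of 19 fits that left out 1 array, those without KO_Aged replicate 1 or without any 1 of the KO_Adult arrays, with adjusted p from 0.011 to 0.148 over the 19. Without both arrays of high Gapdh ratio it was -0.56 (adjusted p = 0.302).

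The poly-A controls are absent from all KO_Aged arrays and present on all WT_Aged arrays. With the term for them, which is then estimated through the KO_Adult arrays, Flnc differed by -0.81 (SE 0.59, adjusted p = 0.410), Ankrd1 by -0.56 (SE 0.55, adjusted p = 0.555) and Xirp1 by -0.42 (SE 0.45, adjusted p = 0.589). None of the 3 passed, Fhl2 alone was called, and 5.49% of all tested genes were. A comparison with no split between its sides was that of KO_Aged with WT_Adult, both without controls, where age differs. There Flnc differed by -1.42 (SE 0.35, adjusted p = 0.0058), Xirp1 by -0.86 (SE 0.27, adjusted p = 0.0205) and Ankrd1 by -0.83 (SE 0.33, adjusted p = 0.0645), with 30.9% of all tested genes called.

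The LIM genes Lmcd1, Csrp3 and Fhl1, with Ankrd2 and Tcap, did not pass in aged muscle. Lmcd1 read 21868, 16908, 20424 and 15245 in KO_Aged, against 18642, 17979, 17908, 14875 and 17757 in WT_Aged (-0.01, SE 0.16, adjusted p = 0.970). Ankrd2 read 16762, 15304, 13494 and 10659 in KO_Aged, against 16287, 12071, 13156, 10728 and 11082 in WT_Aged (0.12, SE 0.21, adjusted p = 0.682). The groups overlapped for both genes. Csrp3 averaged 21397 ± 2454 in KO_Aged (n = 4) and 19559 ± 1530 in WT_Aged (n = 5), a log2 difference of 0.03 (SE 0.17, adjusted p = 0.897). Tcap averaged 15215 ± 1553 in KO_Aged (n = 4) and 13797 ± 1174 in WT_Aged (n = 5), a log2 difference of 0.07 (SE 0.13, adjusted p = 0.690). Fhl1 read 23015, 23489, 22299 and 24640 in KO_Aged, against 19132, 21229, 20815, 18519 and 19562 in WT_Aged. Its deposited intensities did not overlap, its normalized values did, and the log2 difference was 0.09 (SE 0.10, adjusted p = 0.524).

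Fhl2 and Fhl3 were dim, with mean intensities of 110 and 41.8, and within KO_Adult both differed between arrays with and without poly-A controls. For Fhl2, WT_Aged, all with controls, overlapped WT_Adult, all without, and had the higher mean. The WT groups also differ in age, so age and the split cannot be told apart between them. Fhl2 (chr1:43123071-43198343), which binds many transcription factors and integrins, read 226 and 132 on the KO_Adult arrays without controls and 11.6, 19.5 and 24.5 on those with them. This difference within 1 group was -2.79 (SE 0.37, adjusted p = 3e-04), arrays with controls minus arrays without. In that comparison 1952 of all 7436 tested genes were called, and how many differed by as much as Fhl2 was not counted. With the poly-A control term Fhl2 differed by 3.37 between aged and adult WT muscle (SE 0.45, adjusted p = 0.00453). There 7 of all 7436 tested genes were called. WT_Adult read 51.9, 80.9, 83.6, 128 and 64.2, between the KO_Adult subsets. In aged muscle Fhl2 read 160, 187, 183 and 181 in KO_Aged, against 161, 123, 64.2, 104 and 98.1 in WT_Aged, and 1 WT array reached the KO range. The genotype difference was -0.34 in adult muscle (SE 0.51, adjusted p = 0.685) and 0.66 in aged muscle (SE 0.55, adjusted p = 0.382), and with the term 1.33 (SE 0.34, adjusted p = 0.0276) and -2.13 (SE 0.46, adjusted p = 0.016). Within arrays without controls KO_Aged minus WT_Adult was 1.24 (SE 0.27, adjusted p = 0.00248), and within arrays with controls KO_Adult minus WT_Aged was -2.04 (SE 0.29, adjusted p = 0.00035). No direction for Fhl2 without desmin can be given from these arrays.

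Fhl3 (chr4:124695964-124708611), whose protein binds actin and MyoD in mouse, read 19.6 and 11.9 on KO_Adult arrays without controls and 87.1, 76.2 and 61.8 on those with them. WT_Adult read 21.6, 23.6, 70.5, 10.8 and 59.0. The aged groups did not overlap, at 6.64, 26.0, 8.08 and 9.37 in KO_Aged and 35.3, 78.5, 52.0, 48.5 and 88.3 in WT_Aged (log2 difference -2.15, exact permutation p = 0.00794). With no filter on dim genes Fhl3 was tested and called there (adjusted p = 0.0164). The difference lies wholly across the control split and was 0.07 with the term. The adult difference was 0.59 (exact permutation p = 0.373), and -0.74 with the term.

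Age alone called none of the 9 tested genes, in KO muscle (7.44% of all tested genes called) or in WT muscle (38.9%), nor did the genotype by age interaction (25.1%). At an unadjusted p under 0.05 limma had 3 of the 9 in KO muscle, 1 in WT muscle and 0 for the interaction. Over all 7436 tested genes that threshold was passed by 1733 in KO muscle, 3627 in WT muscle and 2821 for the interaction. The genotype difference of Ankrd1 was -0.93 at both ages, an interaction of 0.00 (SE 0.45, adjusted p = 0.998), and that of Xirp1 differed between ages by 0.17 (SE 0.37, adjusted p = 0.760). For Flnc the interaction was -0.96 (SE 0.50, adjusted p = 0.166), so the aged and adult differences were not shown to differ. Without KO_Aged replicate 1 the interaction counted 1 gene, a lower one. Ankrd2 was higher in aged than in adult KO muscle by 0.67 (SE 0.21), which did not pass (adjusted p = 0.0593, exact permutation p = 0.0238), and 3 of 4 KO_Aged arrays lay above all KO_Adult arrays. The count of genes called between aged and adult KO muscle was 1 without KO_Adult replicate 1, 2 or 4 or without KO_Aged replicate 1. Tcap differed by -0.29 between aged and adult WT muscle (SE 0.12, adjusted p = 0.0691, exact permutation p = 0.0159), with 4 of 5 WT_Aged arrays below all WT_Adult arrays.

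**Figure D3:**
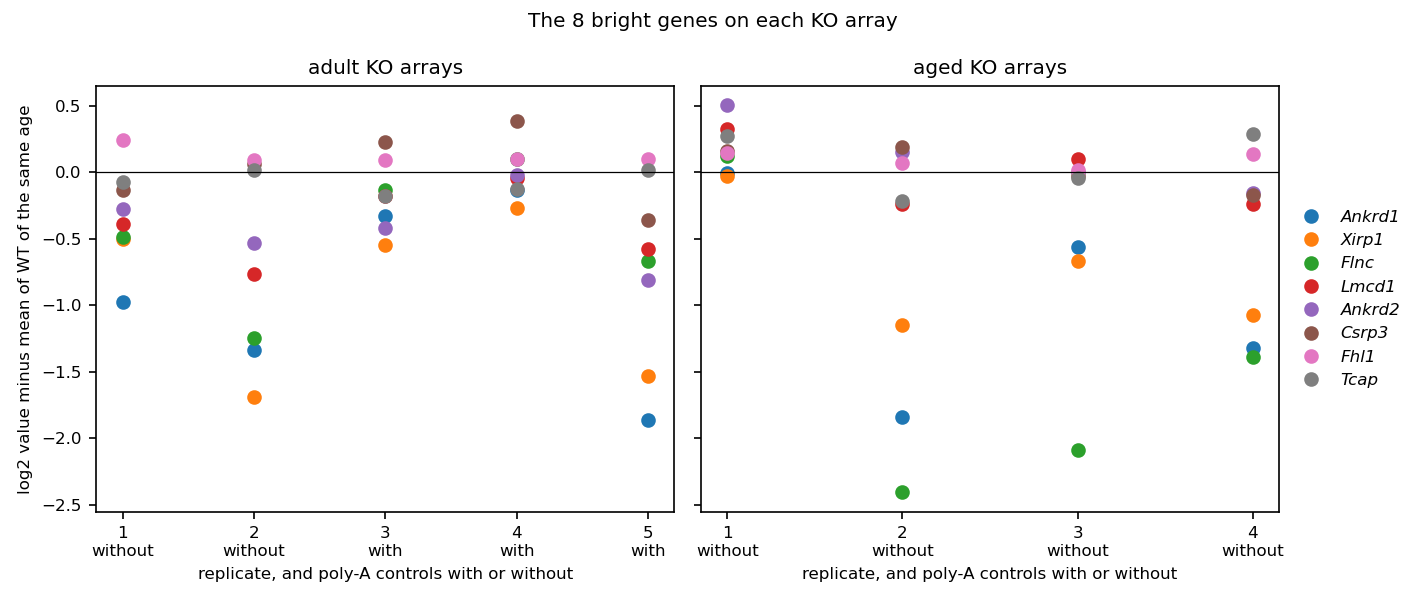
Normalized log2 value of the 8 bright genes on each KO array, minus the WT mean of the same age, with adult arrays on the left and aged arrays on the right. The line at 0 is the WT mean. Ankrd1, Xirp1 and Flnc spread downward on some KO arrays and lie near 0 on KO_Aged replicate 1, while Fhl1 and Tcap stay close to the line on all KO arrays.

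The KO arrays also differed more among themselves for the 3 lower genes. The SD of Ankrd1 on the log2 scale was 0.71 in KO_Adult and 0.12 in WT_Adult, and 0.81 in KO_Aged and 0.08 in WT_Aged. For Xirp1 it was 0.65 in KO_Adult and 0.15 in WT_Adult, and 0.51 in KO_Aged and 0.08 in WT_Aged. For Flnc it was 0.51 in KO_Adult and 0.12 in WT_Adult, and 1.13 in KO_Aged and 0.18 in WT_Aged. The SD was thus larger in the KO group at both ages for each of these genes. KO_Adult holds arrays with and without poly-A controls, while WT_Adult holds only arrays without, and KO_Aged holds the 2 arrays of high Gapdh ratio; their part in the spread was not tested. Over all tested genes the median SD was 0.38 in KO_Adult and 0.34 in WT_Adult, and 0.33 in KO_Aged and 0.21 in WT_Aged. Over the 9 tested genes here it was 0.29 in KO_Adult and 0.15 in WT_Adult, and 0.27 in KO_Aged and 0.14 in WT_Aged. Fhl1 was steady throughout, with an SD of 0.06 in KO_Adult and 0.11 in WT_Adult, and 0.06 in both aged groups.

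After the means of group and poly-A controls were taken out, several of the genes rose and fell together over the 19 arrays. Of 45 pairs, 9 had an adjusted permutation p under 0.05 by Pearson correlation (100000 permutations, Benjamini-Hochberg over the 45 pairs), 5 of them by Spearman correlation too, and 30 pairs had r above 0. The same counts over pairs of other tested genes were not made, so moving together is not shown to be particular to these genes. Ankrd1 and Xirp1 had r = 0.85 and rho = 0.76 (adjusted permutation p = 0.000337 and 0.00371), and r = 0.79 without the 2 arrays farthest from the median of Ankrd1. Xirp1 and Lmcd1 had r = 0.84 and rho = 0.75 (adjusted permutation p = 0.000225 and 0.00371), and Ankrd1 and Lmcd1 r = 0.81 and rho = 0.84 (adjusted permutation p = 0.000225 and 0.00045). Ankrd2 and Csrp3 had r = 0.82 and rho = 0.73 (adjusted permutation p = 0.000337 and 0.00648). Lmcd1 was correlated with both: Ankrd2 and Lmcd1 had r = 0.79 and rho = 0.78 (adjusted permutation p = 0.0009 and 0.0027) and Csrp3 and Lmcd1 r = 0.58 and rho = 0.52 (adjusted permutation p = 0.0457 and 0.108). With the 2 farthest arrays left out, r was 0.75 for Xirp1 and Lmcd1, 0.76 for Ankrd1 and Lmcd1, 0.74 for Ankrd2 and Csrp3, 0.79 for Ankrd2 and Lmcd1 and 0.48 for Csrp3 and Lmcd1. Flnc had r = 0.70 with Ankrd1 and 0.69 with Xirp1 (adjusted permutation p = 0.0127 and 0.00682), but rho of 0.56 and 0.55 did not pass (adjusted permutation p = 0.0848 and 0.092). Flnc and Lmcd1, at r = 0.60, dropped to 0.37 without the 2 farthest arrays, so that relation rests on them. The arrays share 1 normalization, and the 2 of high Gapdh ratio are among them. For Ankrd1, Xirp1 and Flnc the KO arrays spread more than the WT arrays, so the KO arrays weigh more in r. The permutations shuffled the 19 residuals freely. They allowed neither for this unequal spread nor for the means taken out, so the adjusted permutation p may be too small.

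**Figure D4:**
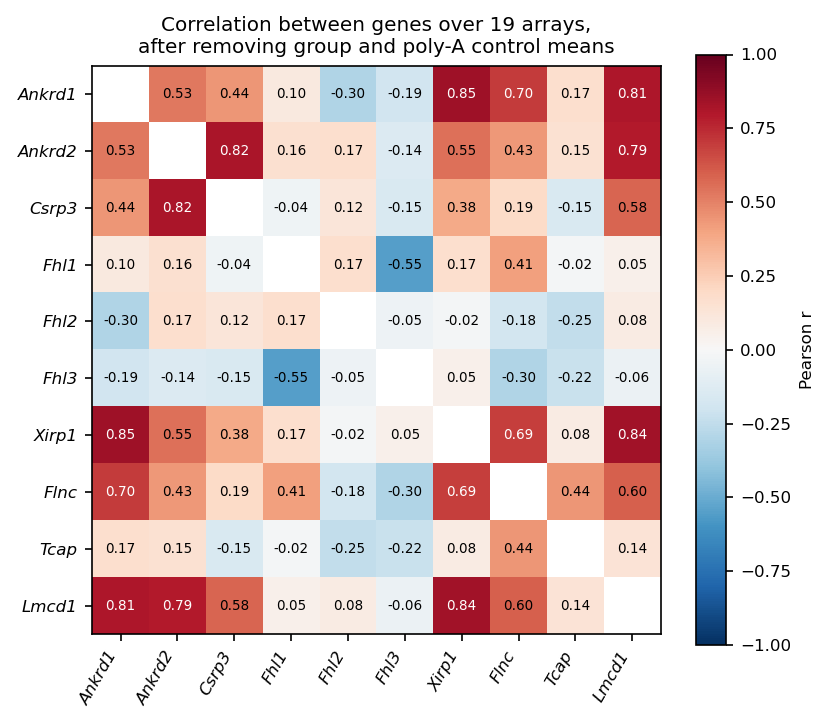
Pearson r between each pair of the 10 genes over the 19 arrays, after removing the means of group and poly-A controls. Ankrd1, Xirp1 and Lmcd1 have r of 0.81 to 0.85 with each other, Ankrd2 and Csrp3 have 0.82, and Fhl2 has r of -0.30 to 0.17 with the other genes.

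The tested genes with residuals most like those of 4 members were taken by Pearson r over the same 19 arrays, as a description. For Ankrd1 they were Tnfrsf12a (0.91), the receptor of the cytokine TWEAK, Enah (0.90), an actin elongation factor, and the inducible chaperone Hspa1a (0.90). For Xirp1 they were the small heat shock protein Hspb8 (0.95), the deadenylase-related Noct (0.94) and the transcription factor Sox9 (0.92). For Flnc they were the centromere protein Cenpb (0.94), Nrap (0.86), a LIM and nebulin repeat protein, and Trio (0.85), and for Csrp3 the RNA exonuclease subunit Dis3 (0.82), Ankrd2 (0.82) and the uridine-cytidine kinase Uck2 (0.77). In aged KO against aged WT muscle, 7 of these 11 genes outside the 10 were called, all lower, among them Cenpb, Sox9 and Trio. Of all tested genes 29.5% were called there, 12.5% as lower. The 11 were picked over the same arrays, so their count is no separate result. That comparison lies wholly across the poly-A control split and holds the 2 arrays of high Gapdh ratio. Hspb8 differed by -0.52 (adjusted p = 0.0289), Hspa1a by -2.41 (adjusted p = 0.00767), Noct by -2.04 (adjusted p = 0.000211) and Enah by -1.22 (adjusted p = 0.0174), while Tnfrsf12a at -0.55 (adjusted p = 0.113), Nrap at -0.21 (adjusted p = 0.639), Dis3 at -0.11 (adjusted p = 0.684) and Uck2 at -0.29 (adjusted p = 0.428) did not pass. By limma 0 of the 11 were called in adult muscle, where 16.7% of all tested genes were. The lowest adjusted p there was that of Tnfrsf12a (-0.61, adjusted p = 0.0863).

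Genes related to the 10 by family or place in the cell were counted in lists. Each count stands beside 16.7% of all tested genes called in adult and 29.5% in aged KO against WT muscle, or 6.67% and 5.49% with the poly-A control term, and no list is called particular from it. Of 5 tested family relatives, 2 were lower in adult KO muscle, Flna (-0.97, adjusted p = 0.00646), the non-muscle filamin, and Lims2 (-1.15, adjusted p = 0.0145), an integrin-linked LIM protein, and the median was 0.27. In aged KO muscle 1 was higher, Lims1 (1.37, adjusted p = 0.00247), and the median was 0.11. With the poly-A control term Lims1 was higher (2.43, adjusted p = 0.00538) and Lims2 lower (-1.79, adjusted p = 0.0323) in aged muscle, where the median was -0.64. Flna and Lims2 in adult muscle were not called with it.

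Titin and Z-disc partners numbered 18 tested. In adult KO muscle 2 were higher and 4 lower (median -0.03), among them Smpx (0.52, adjusted p = 0.00188), the small muscle X-linked protein, Pdlim7 (-0.86, adjusted p = 0.000795), a PDZ and LIM protein, and the protease Capn3 (-0.70, adjusted p = 0.00474). With the poly-A control term 2 were higher and 1 lower, Smpx and Pdlim7 among them. In aged KO muscle 3 were higher and 2 lower (median 0.19), with Myoz2 (2.75, adjusted p = 1.69e-06), the calsarcin of slow fibres, Actn2 (1.07, adjusted p = 8.59e-05), an alpha-actinin, and Ldb3 (0.82, adjusted p = 0.00067) in front. With the term 2 were higher, Myoz2 and Actn2, and 1 lower. Myoz2 is also 1 of the 10 slow fibre markers used here. Of those markers, Myoz2 included, 8 were higher in aged KO muscle (median 3.02), 3 with the poly-A control term (median 2.37), and their summed intensity was 26391 to 44306 in KO_Aged and 6066 to 11621 in WT_Aged. The part of slow fibres in these values was not tested.

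Of 8 ubiquitin ligases and autophagy adaptors, 3 were lower in adult KO muscle (median -0.33): Sqstm1 (-0.72, adjusted p = 0.0184), Bag3 (-0.87, adjusted p = 0.0274), the cochaperone that takes damaged filamin to autophagy, and the ligase Stub1 (-0.46, adjusted p = 0.0385). With the term 2 were lower, one of them Bag3 (-1.20, adjusted p = 0.036). In aged KO muscle 2 were higher and 4 lower (median -0.22), with Sqstm1 at 1.37 (adjusted p = 0.000142), Trim54 at 0.47 (adjusted p = 0.0195) and the atrophy ligase Fbxo32 at -1.66 (adjusted p = 0.0122), and none was called with the term.

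Of 15 costamere and adhesion genes, 1 was higher and 2 lower in adult KO muscle (median -0.14), Cav3 (0.87, adjusted p = 0.0018), Tln1 (-1.38, adjusted p = 0.000719) and Zyx (-0.92, adjusted p = 0.0129). In aged KO muscle 4 were higher and 1 lower (median 0.19), with Pxn at -0.87 (adjusted p = 0.000363), Sgca at 0.86 (adjusted p = 0.000452) and Ilk at 1.42 (adjusted p = 0.00184). Cav3, Tln1 and Pxn were called with the term and Zyx, Sgca and Ilk were not. Of 4 intermediate filament genes other than Des limma called 0 at either age (medians 0.00 in adult and -0.57 in aged muscle), with 0 in adult and 2 in aged muscle at an unadjusted p under 0.05. That unadjusted threshold was passed by 2355 of all 7436 tested genes in adult and 3064 in aged muscle. With the term 1 was called in adult muscle, the stem cell filament gene Nes, which differed by -1.51 (adjusted p = 0.0147) with the term and -0.51 (adjusted p = 0.353) without it. In aged muscle Nes differed by 0.86 (adjusted p = 0.24) with the term and -0.80 (adjusted p = 0.125) without it, so its sign turned, and 0 genes of the list were called with it.

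Of 20 targets and factors of the serum response factor and YAP/TEAD pathways, to which Ankrd1 is often counted, 1 was higher and 5 lower in adult KO muscle (median -0.09), and 1 higher and 4 lower in aged KO muscle (median -0.13). Cardiac actin Actc1 had the same difference at both ages, -2.35, with adjusted p = 4.98e-06 in adult and 5.37e-06 in aged muscle, and was called with the term (-2.71 and -1.75). With the term 0 were higher and 2 lower in adult muscle, and 2 higher and 1 lower in aged muscle. Tagln (-1.24, adjusted p = 0.00264) and Yap1 (0.74, adjusted p = 0.0177) in adult muscle, and Actb (-2.22, adjusted p = 0.00432) and Fosl1 (-2.12, adjusted p = 0.00669) in aged muscle, were not called with it. Tagln is also a smooth muscle marker, and that list's summed intensity was 1842 to 3595 in KO_Adult and 3449 to 4844 in WT_Adult, with 2 of 4 tested markers lower.

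Markers of other cells were called between the groups as follows, in the fit without the poly-A control term unless stated, and their part in the values of the 10 genes was not tested. Each marker count stands beside 16.7% of all tested genes called in adult and 29.5% in aged muscle. With the term these shares were 6.67% and 5.49%. Of 8 endothelial markers 7 were lower in adult KO muscle, with summed intensities of 2169 to 2812 in KO_Adult and 5247 to 6435 in WT_Adult, and 1 was higher and 3 lower in aged KO muscle. Of 10 slow fibre markers 3 were higher and 1 lower in adult KO muscle, with sums of 14997 to 25210 in KO_Adult and 9635 to 17985 in WT_Adult. Fast fibre markers gave 0 limma calls in adult KO muscle, also at an unadjusted p under 0.05, and 1 higher in aged KO muscle, and smooth muscle markers 1 higher of 4 in aged KO muscle. Of 9 markers of regenerating fibres and myoblasts 3 were higher and 1 lower in adult and 3 higher and 3 lower in aged KO muscle. Of 7 fibroblast markers 1 was lower in adult and 2 were higher in aged KO muscle. By limma, 0 of 7 macrophage and 0 of 5 neutrophil markers were called between genotypes at either age. At an unadjusted p under 0.05 there was 1 macrophage marker at each age and 1 neutrophil marker in adult muscle. That unadjusted threshold was passed by 2355 of all 7436 tested genes in adult and 3064 in aged muscle. Of the heart genes only Tnnt2 was tested, and it was higher in KO muscle by 1.44 in adult and 1.47 in aged muscle. With the poly-A control term 5 endothelial markers were lower in adult and 2 in aged KO muscle, and 2 slow fibre markers were higher in adult KO muscle. Of the regenerating markers 2 were then higher and 1 lower in adult, and 1 higher and 1 lower in aged KO muscle. Fibroblast, smooth muscle, fast fibre, macrophage and neutrophil markers had 0 limma calls with the term, and Tnnt2 was called in adult muscle only.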

How the data were processed

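RNA of 19 samples was hybridised to 1 array each. The deposited table holds 1 linear intensity for each of 22690 probe sets on each array. Per the submitters' processing notes MAS5 was used, and no version of it was found in the labels. Of these probe sets 64 are controls, 20380 have 1 gene symbol, 691 several and 1619 none. Values were taken as log2(value + 4.76), the pseudocount being percentile 10 of all values, and quantile normalized without control probe sets, since the array medians spanned 0.63 on the log2 scale. The upper 60% of 12393 genes by mean were tested with a mean per group over all 19 arrays (R 4.3.3, limma 3.58.1 with lmFit and eBayes, 15 residual degrees of freedom, Benjamini-Hochberg). Folds are 2 raised to these differences, so the added pseudocount makes them too small for dim genes.

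The number of arrays limits the precision. Whether bright probe sets were saturated cannot be read from these values and was not tested. Arrays with DapX-3 over 500 were taken as carrying poly-A controls. This split enters as a term in some alternatives, and what made it was not tested. Exact permutation tests were two-sided over arrays of the groups compared. Correlations used residuals from means of group by poly-A controls. The model was tested on simulated data. Python 3.11.15, pandas 2.3.3, numpy 2.4.6, scipy 1.17.1 and matplotlib 3.10.9 made the tables and plots.

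The 10 genes, the related lists and the cell type markers were chosen with earlier results of these data known. The rule named the 10 genes, Des, from each related list the 3 tested genes with the smallest p in each genotype comparison, and for Ankrd1, Csrp3, Xirp1 and Flnc the 3 genes most like them; clone-style symbols were passed over, and cell markers were named beside these. Genes are named from the platform annotation, with coordinates from RefSeq. Alternatives covered normalization, pseudocount, dim filter, probe set, threshold, variance model, array weights, arrays fitted, poly-A controls, Gapdh ratio, the code blocks of the sample titles and each array left out.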

Additional observations from a re-analysis of the deposited data

Results flagged for a closer look

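Within the 4 groups of the 10 genes, 40 sets of arrays were examined for a sample far from the others, and 2 were found. Chance alone picks out about 1 set in 20. The normalized log2 value of Fhl1 on KO_Adult replicate 1 was 14.67, above 14.53 on the nearest array and 14.52 on the lowest, although its deposited intensity of 22276 was not the highest of the group. That of Fhl3 on KO_Aged replicate 2, one of the arrays of high Gapdh ratio, was 5.06, above 3.48 on the nearest array and 3.41 on the lowest, from an intensity of 26.0. What set them apart was not tested.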

How the results depend on the processing

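In adult KO against WT muscle the count of the 10 genes called was 2. It was 1 with median centring, with no filter on dim genes, with the mean of all probe sets, with the poly-A control term alone or also without the arrays of high Gapdh ratio, and with the code block covariate; 0 at adjusted p under 0.01, with only the groups compared and with only the arrays without poly-A controls; 0 to 2 with 1 array left out; and 3 with no normalization and with a trended, robust variance. In aged KO against WT muscle it was 3, but 2 with no filter on dim genes and with the mean of all probe sets, 1 with no normalization, at adjusted p under 0.01 and with the poly-A control term with or without the arrays of high Gapdh ratio, 0 without those arrays, and 1 to 3 with 1 array left out. Between aged and adult KO muscle it was 0, but 1 with median centring, no normalization or a trended, robust variance, 2 with array weights or the code block covariate, and 0 to 1 with 1 array left out. Between aged and adult WT muscle it was 0, but 1 with no normalization, the trended variance, the poly-A control term with or without the arrays of high Gapdh ratio, those arrays left out alone, and the code block covariate; it stayed 0 with 1 array left out. The interaction had 0, but 1 with no filter, 2 with array weights and 0 to 1 with 1 array left out. The count over all 7436 tested genes moved too. In adult KO against WT muscle it was 1241, but 496 with the poly-A control term and 504 at adjusted p under 0.01. It was 624 with only the groups compared, 106 with only the arrays without poly-A controls and 1284 with median centring. In aged KO against WT muscle it was 2190, but 1059 without the arrays of high Gapdh ratio. It was 1150 at adjusted p under 0.01, 408 with the term and 2301 with no normalization. The cause of these moves was not tested. Fhl2 changed direction with a call: in adult muscle to 1.33 with the poly-A control term, the same without the arrays of high Gapdh ratio and with the code block covariate, and in aged muscle to -2.13 with the poly-A control term and -2.34 without those arrays as well. With array weights Fhl2 was called lower in adult KO muscle (-0.90, adjusted p = 0.015), a setting in which 3802 of all 7436 tested genes were called. Over 688 settings of single genes 608 were counted as unchanged (31 of them uncalled values that changed sign), 69 lost and 3 gained a call, and 5 reversed. Fhl3 was untested in the main fit, so its settings had no side of the threshold to keep. It was judged by size, and 3 of its settings moved by more than 1 SE with the same sign. A changed sign of Fhl3 was counted as unchanged, as from 0.59 to -0.74 with the poly-A control term in adult muscle. In adult KO against WT all genes split 544 higher and 697 lower, 916 and 368 with median centring and 421 and 996 with no normalization. No paired analysis was possible because replicate numbers here only follow the order of the samples and pair nothing. Dim probe sets such as Fhl2 and Fhl3 limit what can be said of those genes.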
